A study of Mus musculus with 12 samples.

Results

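The cytosolic ribosomal protein genes were 82 of the 53465 genes in the count tables. They were chosen by name: every protein-coding gene whose symbol is Rpl or Rps with a number and at most a short suffix, with Rplp1, Rplp2 and Rpsa added and Rplp0 left out. The rule itself uses no measured value. Of the 82, 50 encode proteins of the large (60S) subunit and 32 proteins of the small (40S) subunit, and 6 are paralogues of another member (Rps27l, Rpl3l, Rpl7l1, Rpl10l, Rpl22l1 and Rpl39l). A further 6 genes with matching symbols are not annotated as protein-coding and were not members. The members lie on 19 chromosomes, with 14 on chromosome 7 and 4 on the X chromosome. Passing the filter on low counts in each comparison were 79 members. The 3 that did not were Rpl10l, Rpl39l and Rpl3l.

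Each ribosome holds about the same number of copies of nearly every ribosomal protein, so cells keep the output of these scattered genes closely matched. Their mRNAs are among the most abundant of a growing cell and begin with a C followed by a run of pyrimidines, the terminal oligopyrimidine (TOP) tract, through which mTOR and LARP1 adjust their translation. Ribosomal protein mRNAs have also left many processed copies in mammalian genomes: intronless pseudogenes, reverse-transcribed from the mRNA and nearly identical to it. Haploinsufficiency of single members gives tissue-restricted defects, and loss of Rpl38 in the mouse disturbs the axial skeleton through the translation of Hox mRNAs.

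RNA-seq of mouse forelimb buds on the Swiss albino background gave 12 libraries in 4 groups of 3, each library from 1 pair of forelimb buds. Tbx3_del embryos were homozygous for Tbx3ΔVenus, an allele in which a Venus reporter with a transcription stop was placed at the start codon of the T-box gene Tbx3, and were taken at E9.75 to 10.0 (28 to 31 somites). Tbx3_WT embryos were wild type at the same stage. Hand2_del embryos had the genotype Prrx1-Cre;Hand2Δ/Δc, in which a Cre transgene active in the limb mesenchyme removed the bHLH factor HAND2. They were taken at E10 to 10.25 (31 to 33 somites), as were Hand2_WT embryos, which were Prrx1-Cre;Hand2+/+ and so carried the Cre transgene too. Stage, sequencing depth and breeding differed together between the Tbx3 and Hand2 series, and levels set across them cannot be told apart from those differences. Hand2 was at 0.187, 2.21 and 0.384 counts per 1000000 (CPM) in Hand2_del, against 119.6, 120.3 and 126 CPM in Hand2_WT. Tbx3 itself was at 80.6, 79.3 and 73.3 CPM in libraries labelled Tbx3_del, against 78, 77.3 and 79.3 CPM in Tbx3_WT, and its total gene count therefore does not separate the labels.

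The libraries held 23311692 to 31764847 expected counts in the Tbx3 series and 60183822 to 68568005 in the Hand2 series. Members took 6.06, 6.65 and 6.18% of all counts in libraries labelled Tbx3_del, against 5.89, 5.91 and 6.08% in Tbx3_WT. They took 5.32, 5.73 and 5.92% in Hand2_del, against 5.68, 5.60 and 5.65% in Hand2_WT. In Hand2_del replicate 1, 5.37% of the counts fell on CT010467.1, a ribosomal-RNA-like gene, whereas in the other libraries Eef1a1 led with about 1% or less. By Xist, 2 of 3 Tbx3_del, 0 of 3 Tbx3_WT, 2 of 3 Hand2_del and 1 of 3 Hand2_WT libraries were male. Limb mesenchyme markers (10 genes) summed to 1668 to 1909 CPM in libraries labelled Tbx3_del, against 1922 to 1927 CPM in Tbx3_WT, and to 2062 to 2457 CPM in Hand2_del, against 1819.9 to 2039 CPM in Hand2_WT. Of these 10 genes 1 was called lower in libraries labelled Tbx3_del. In Hand2_del 4 were called higher and 2 lower, with log2 fold changes from -1.33 to 0.63. Markers of other cells also moved with the labels: macrophage markers (9 genes) summed to 7.70 to 9.04 CPM in libraries labelled Tbx3_del, against 2.30 to 4.99 CPM in Tbx3_WT, and to 9.57 to 16.7 CPM in Hand2_del, against 4.62 to 7.60 CPM in Hand2_WT. These are low sums. In the Tbx3 comparison 4 of the 9 genes passed the filter on low counts, all positive and none called. In the Hand2 comparison all 9 were tested and positive, and 2 were called higher. The Tbx3 groups also lay apart in the sums of hindlimb markers (5 genes, 27.4 to 27.6 CPM in libraries labelled Tbx3_del, against 8.88 to 10.7 CPM in Tbx3_WT) and of neural crest and neuron markers (9 genes, 106 to 123 CPM in libraries labelled Tbx3_del, against 94.7 to 105 CPM in Tbx3_WT). Of the 5 hindlimb markers 3 had a positive log2 fold change, and the lowest was -0.34. Pitx1 (mean 12.7 CPM in libraries labelled Tbx3_del, against 0.61 CPM in Tbx3_WT) and Hoxc9 (10.6 against 5.20 CPM) were called higher. Of the 6 neural crest and neuron markers tested 3 were positive and none was called. Their median was -0.17, so their sum does not stand for the list as a whole. No marker gene of these lists was at 0 in all libraries of a comparison, and the part of tissue makeup and sex in the results below was not tested. In buds sequenced whole, fewer cells of a type and less RNA per cell cannot be told apart. The p-values measure the spread between these pairs of buds.

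Per kilobase of annotated transcript, most members differed far more from each other than between groups. Ranked in Tbx3_WT, the highest was Rpl41, which encodes a very short peptide of the 60S subunit, at 2626 ± 161 in libraries labelled Tbx3_del, 2493 ± 436 in Tbx3_WT, 2255 ± 127 in Hand2_del and 2316 ± 25.7 in Hand2_WT CPM per kb (mean ± SD, n = 3 each). Rplp1, a stalk protein that recruits elongation factors to the ribosome, followed at 2212 ± 264 in libraries labelled Tbx3_del, 2181 ± 149 in Tbx3_WT, 1957 ± 58.9 in Hand2_del and 2186 ± 106 in Hand2_WT. The order of Rpl41 and Rplp1 was the same in all 4 groups, but in Tbx3_WT their difference was within the SD of Rpl41. Rps12 of the 40S subunit stood at 1747 ± 51 in libraries labelled Tbx3_del, 1693 ± 135 in Tbx3_WT, 1449 ± 60.6 in Hand2_del and 1535 ± 46.2 in Hand2_WT. Rpl23a, at the exit of the peptide tunnel, and Rpl8, near the peptidyl transferase centre, were within a small margin of it: Rpl23a at 1717 ± 124 in libraries labelled Tbx3_del, 1652 ± 41.3 in Tbx3_WT, 1564 ± 90.2 in Hand2_del and 1666 ± 41.2 in Hand2_WT, and Rpl8 at 1685 ± 90.3 in libraries labelled Tbx3_del, 1649 ± 13 in Tbx3_WT, 1461 ± 55.2 in Hand2_del and 1508 ± 21.9 in Hand2_WT. Among these 3 the order changed between groups, and in both groups of the Tbx3 series they differed by less than the largest of their SDs. Rps2, at 2475 ± 409 in libraries labelled Tbx3_del, 1131 ± 522 in Tbx3_WT, 2088 ± 377 in Hand2_del and 1829 ± 519.9 in Hand2_WT, was one of the members whose rank among the 79 moved most: it ranked 2, 30, 2 and 3 in these groups, in the same order, while Rps3a1 ranked 13, 10, 47 and 16, Rps18 44, 64, 33 and 62 and Rpl26 66, 49, 75 and 74. These 4 share sequence with genes elsewhere in the genome, called copies below. With the counts of copies added, Rps2 stood at 3053 ± 174 in libraries labelled Tbx3_del, 2928 ± 24.3 in Tbx3_WT, 2479.9 ± 113 in Hand2_del and 2663 ± 87.9 in Hand2_WT CPM per kb. Rpl41 with its copies stood at 2929 ± 169 in libraries labelled Tbx3_del, 2802 ± 451 in Tbx3_WT, 2547 ± 153 in Hand2_del and 2594 ± 26.5 in Hand2_WT, so that Rps2 was above Rpl41 in 3 of the 4 groups, by less than the larger of their SDs in each.

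The lowest tested member per kilobase was Rpl7l1, a paralogue of Rpl7 that in human cells belongs to 60S precursors, at 187 ± 10.6 in libraries labelled Tbx3_del, 192 ± 8.02 in Tbx3_WT, 159.6 ± 11 in Hand2_del and 178 ± 10.3 in Hand2_WT CPM per kb. The paralogues Rps27l and Rpl22l1 were low as well, Rps27l at 215 ± 11.9 in libraries labelled Tbx3_del, 217 ± 4.83 in Tbx3_WT, 185 ± 13.9 in Hand2_del and 217 ± 8.99 in Hand2_WT and Rpl22l1 at 282 ± 26.5 in libraries labelled Tbx3_del, 255 ± 18.3 in Tbx3_WT, 243 ± 5.31 in Hand2_del and 255 ± 3.70 in Hand2_WT. Rps20 was listed at 226 ± 21.9 in libraries labelled Tbx3_del, 214 ± 10.9 in Tbx3_WT, 199 ± 4.26 in Hand2_del and 195 ± 1.51 in Hand2_WT, but its annotated transcript of 3706 bases is longer than that of any other member, and which of its transcripts was expressed was not tested. Rps24, the fifth from the bottom in Tbx3_WT, was at 355 ± 66.9 in libraries labelled Tbx3_del, 349.8 ± 70.2 in Tbx3_WT, 346 ± 54.7 in Hand2_del and 381 ± 36 in Hand2_WT. Its place also rests on a long annotated transcript of 1613 bases. Before division by length its mean was 572 CPM in libraries labelled Tbx3_del and 564 CPM in Tbx3_WT. Which of its transcripts was expressed was not tested either. From the lowest to the highest of the 79 the ratio was 14 in libraries labelled Tbx3_del, 13 in Tbx3_WT, 14.1 in Hand2_del and 13 in Hand2_WT. Within 4-fold of the highest lay 62, 64, 67 and 63 members, in the same order. The median of the 40S members was 1053, 1013, 941 and 969 CPM per kb in the same order, and that of the 60S members 951, 930.0, 871 and 891.

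**Figure D1:**
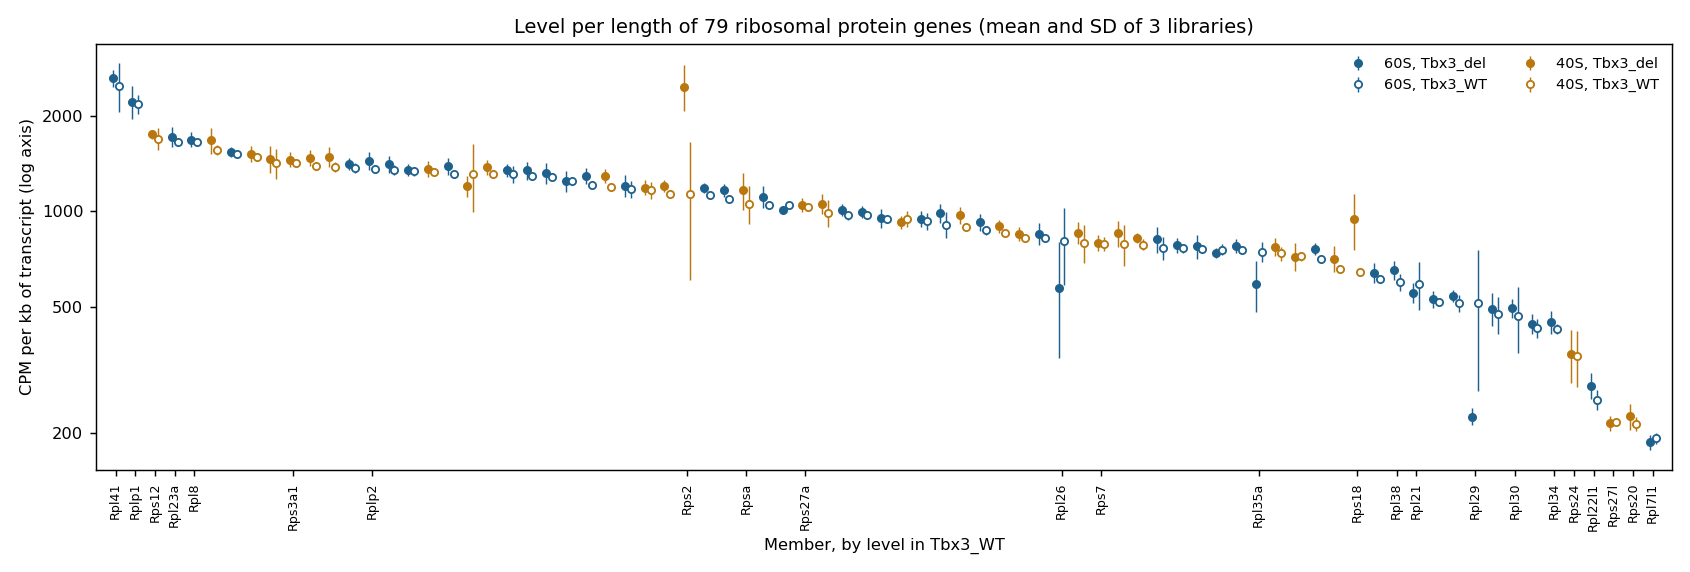
Level of each of 79 members in the Tbx3 series, in CPM per kilobase of annotated transcript on a log axis, as the mean (point) and SD (line) of 3 libraries. Filled points are libraries labelled Tbx3_del and open points Tbx3_WT, blue for the 60S and orange for the 40S subunit, ordered by Tbx3_WT, with names under the members described in the text. Rpl41 stands highest and Rpl7l1 lowest in both groups, and Rps2, Rps18, Rpl26 and Rpl29 are among the few whose points lie apart.

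One feature of the start sites, which the choice by name did not use, was more frequent among the members than over all genes with a listed promoter. A run of C followed by at least 7 pyrimidines, searched on the sense strand within 25 bases either side of the annotated start, was present in 36 of the 62 members in the RefSeq promoter table (GRCm38.p6), or 58.1%. Across all 27025 genes of that table it was present in 5055, or 18.7%. A gene with several promoters was counted if any of them had the run. The runs below are shown because they have the letters of a TOP tract and begin close to the annotated start. They begin upstream of it, at -2 (Rps18 and Rps27) or -4 (Rpl27a, Rpl15 and Rplp2). Whether the mRNAs begin at that C was not tested. Capitals mark the run, from C to the last pyrimidine, in a 30-base window written 5′ to 3′ on the sense strand. The window of Rps18 lies at chr17:33955641-33955670 (minus strand). The window of Rpl27a lies at chr7:109519188-109519217 (plus strand). The window of Rpl15 lies at chr14:18270964-18270993 (minus strand). The window of Rplp2 lies at chr7:141447644-141447673 (plus strand). The window of Rps27 lies at chr3:90213624-90213653 (minus strand).
Rps18: ccgCTCTCTCTTCCacaggaggcctacacg
Rpl27a: gagCTCCTCCCTTTTCCCTTTCTgccaccg
Rpl15: aagCCTTCTTCCTTTCCTCTggcggcagcc
Rplp2: cgtCTTCCTTTCgccgccggacgccgccga
Rps27: tcgCTCCTTTCCggcggtgacgacctccct
A member without a match only lacks these letters in this window.

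The first comparison asked what differs in buds labelled Tbx3-deficient. In libraries labelled Tbx3_del, 0 of 79 members passed the test, set against 153 of 15131 genes, or 1.01% (edgeR's quasi-likelihood test, adjusted p under 0.05). At an unadjusted p under 0.05 there were 4 (Rps18, Rps2, Rpl29 and Rpl35a), set against 14.3% of all genes. DESeq2 called 2, Rps18 (higher) and Rpl35a (lower), set against 3.43% of all genes, and limma-voom called 0. The members' median log2 fold change was 0.053, against -0.003 over all genes tested, and 68 members were positive and 11 negative. Within 1.2-fold lay 74 of 79 members, against 77.0% of all genes, and for 57 members the whole 95% interval lay inside 1.2-fold. The medians were 0.045 for the 60S subunit and 0.068 for the 40S subunit.

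The positive median was not shared by the 3 libraries. Relative to the mean of Tbx3_WT, the median of the members on the log2 scale was -0.043, 0.13 and 0.067 in libraries labelled Tbx3_del replicates 1, 2 and 3, against -0.030, -0.0021 and 0.028 in Tbx3_WT. Above the Tbx3_WT mean were 18, 73 and 64 of 79 members in libraries labelled Tbx3_del 1, 2 and 3. Library 1 thus sat below all of Tbx3_WT and libraries 2 and 3 above all of it. The SD between libraries, 0.066, was larger than the members' median fold change, which was 0.015 without library 2 and 0.10 without library 1. In 6 members all 3 libraries labelled Tbx3_del lay above all Tbx3_WT libraries, against 10.7% of all genes tested.

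In Hand2_del, 2 of 79 members passed the test, Rps18 and Rpl34, both higher, set against 1836 of 17489 genes, or 10.5%. At an unadjusted p under 0.05 there were 14, set against 32.4% of all genes. DESeq2 called 10, of which 4 were higher (Rps18, Rpl34, Rpl29 and Rpl30) and 6 lower, Rps27l and Rplp1 with the smallest adjusted p among the lower, set against 22.8% of all genes. The members' median log2 fold change was -0.041, against 0.013 over all genes, and 19 members were positive and 60 negative. Within 1.2-fold lay 74 of 79, against 66.7% of all genes, and for 63 members the whole 95% interval lay inside 1.2-fold. The medians were -0.045 for the 60S subunit and -0.035 for the 40S subunit. Relative to the Hand2_WT mean, the library medians were -0.10, -0.037 and -0.0019 in Hand2_del, against 0.009, -0.010 and 0.0034 in Hand2_WT. Library 1, the one with the ribosomal-RNA-like gene, was the lowest, and without it the members' median fold change was -0.019. Library 2 was below all of Hand2_WT as well. Library 3 lay within the range of Hand2_WT. Above the Hand2_WT mean were 17, 16 and 38 of 79 members in Hand2_del 1, 2 and 3. In 17 members all 3 Hand2_del libraries lay below all Hand2_WT libraries, against 19.5% of all genes tested.

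**Figure D2:**
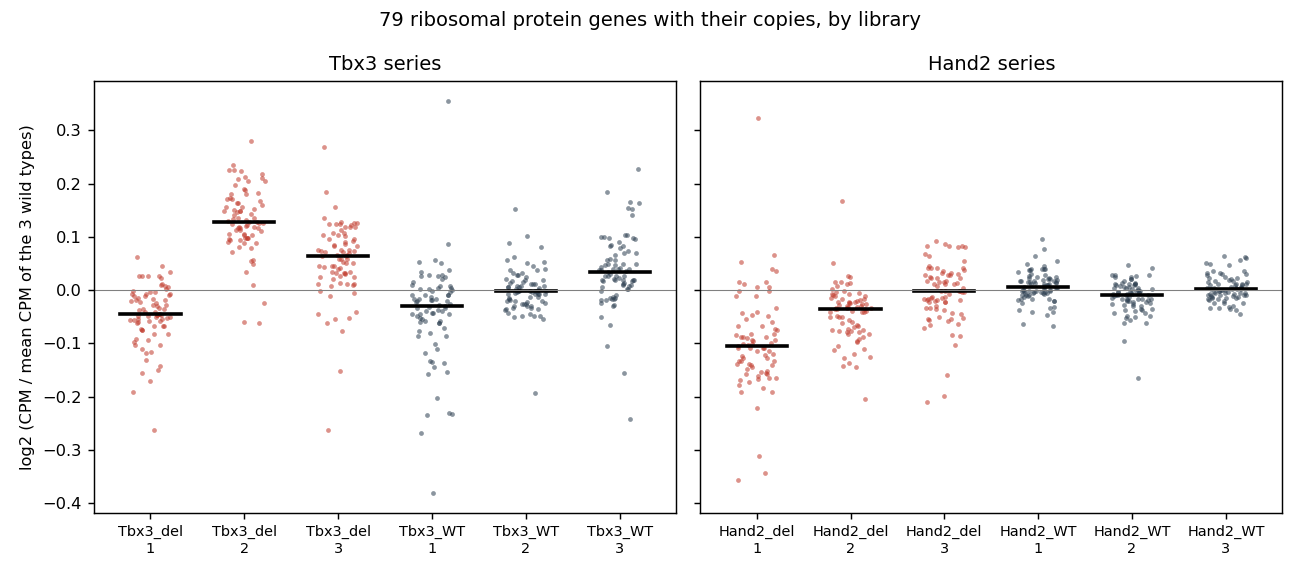
Each point is 1 of 79 members with its copies, as the log2 ratio of its CPM in 1 library to the mean of the 3 wild-type libraries of its series, and each bar is the median of a library. Red points are the libraries labelled Tbx3_del or Hand2_del and grey points those of wild type. The medians of libraries labelled Tbx3_del lie on both sides of Tbx3_WT, and Hand2_del replicate 1 has the lowest median of its series.

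Rps18, a protein of the 40S head, had 508, 529.6 and 565 CPM in Hand2_del, against 339, 338 and 333 CPM in Hand2_WT. All Hand2_del values stood above all Hand2_WT values, and Rps18 rose by a log2 fold change of 0.67 (SE 0.0489, 95% interval 0.55 to 0.78, adjusted p = 0.00143, edgeR). Rpl34, a 60S protein, had 261, 275 and 280.2 CPM in Hand2_del, against 198, 194 and 196 CPM in Hand2_WT. Here too the groups did not overlap, and Rpl34 rose by a log2 fold change of 0.47 (SE 0.0421, 95% interval 0.38 to 0.57, adjusted p = 0.00222, edgeR). Both genes have nearly identical copies elsewhere in the genome, and on those copies the counts ran the opposite way. Gm10260, a copy of Rps18 that is annotated as protein-coding, had 149.9, 160.0 and 169 CPM in Hand2_del, against 316, 317 and 322 CPM in Hand2_WT (-1.0, adjusted p = 3.18e-04). The processed pseudogene Rps18-ps3 had 78.2, 71 and 79.3 CPM in Hand2_del, against 149.7, 152 and 144 CPM in Hand2_WT (-0.96, adjusted p = 3.20e-04). The processed pseudogene Rpl34-ps1 of Rpl34 had 80.4, 84.5 and 84.6 CPM in Hand2_del, against 175, 165 and 170.0 CPM in Hand2_WT (-1.03, adjusted p = 8.63e-05). The fall on each of these 3 copies was close to 2-fold in every Hand2_del library.

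Summed with its copies, Rps18 had 737, 763 and 815 CPM in Hand2_del, against 807, 808 and 801 CPM in Hand2_WT (log2 fold change -0.062, 95% interval -0.18 to 0.051, adjusted p = 0.401). Rpl34 with its copies had 342, 360.5 and 365 CPM in Hand2_del, against 374, 360.1 and 367 CPM in Hand2_WT (log2 fold change -0.044, 95% interval -0.15 to 0.057, adjusted p = 0.507). Neither sum passed the test, and both signs turned. With the counts of similar genes added to every member, 0 of 79 passed the edgeR test in Hand2_del, with 6 at an unadjusted p under 0.05 (32.8% of all genes), and the range of fold changes shrank to -0.23 to 0.16, against -0.62 to 1.54 for the members alone.

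The sequences show how little separates such a copy from its source. Each pair below is a 60-base stretch of the coding sequence from GENCODE M21 transcripts (GRCm38), written 5′ to 3′, with the differing bases in capitals. Positions count from 1 at the A of the start codon of the member, and the member's base is given first. The pairs are shown because their members were called or had the highest or lowest log2 fold change of a comparison. Rps18 (chr17:33951999-33956001, minus strand, coding bases 324 to 383) and Gm10260 (chr13:97760072-97760632, minus strand) differ here by A337C and G371A.
Rps18: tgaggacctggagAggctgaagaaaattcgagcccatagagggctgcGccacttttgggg
Gm10260: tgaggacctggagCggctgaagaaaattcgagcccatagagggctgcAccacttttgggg
Over the whole transcript there are 5 differences, and 210 of its 476 85-base words, the length of 1 read, occur unchanged in Gm10260 (44.1%). Rpl34 (chr3:130726831-130730398, minus strand, coding bases 102 to 161) and Rpl34-ps1 (chr6:71124610-71124963, plus strand) differ here by T132C, 1 of 2 differences, and share 148 of 396 read-length words (37.4%).
Rpl34: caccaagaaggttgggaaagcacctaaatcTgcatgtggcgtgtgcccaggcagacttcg
Rpl34-ps1: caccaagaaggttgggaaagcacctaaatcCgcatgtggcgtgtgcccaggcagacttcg
Rpl29 (chr9:106429454-106431568, plus strand, coding bases 42 to 101) and Gm13841 (chr5:115801677-115802159, minus strand) differ here by C72A and share 181 of 499 read-length words (36.3%).
Rpl29: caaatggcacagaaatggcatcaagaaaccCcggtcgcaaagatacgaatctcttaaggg
Gm13841: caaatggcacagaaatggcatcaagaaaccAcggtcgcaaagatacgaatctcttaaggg
Rps2 (chr17:24718116-24721929, plus strand, coding bases 419 to 478) and Rps2-ps13 (chrX:52898588-52899469, plus strand) differ here by C444T and C453A, 2 of 7 differences, and share 365 of 914 (39.9%).
Rps2: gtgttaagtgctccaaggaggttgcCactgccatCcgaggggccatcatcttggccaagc
Rps2-ps13: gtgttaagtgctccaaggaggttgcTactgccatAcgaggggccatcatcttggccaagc
Rps3a1 (chr3:86137940-86142702, minus strand, coding bases 627 to 686) and Rps3a2 (chr14:88123017-88123808, minus strand) differ here by A645T and T668C, 2 of 4 differences, and share 430 of 893 (48.2%).
Rps3a1: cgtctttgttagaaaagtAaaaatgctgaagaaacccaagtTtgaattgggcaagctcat
Rps3a2: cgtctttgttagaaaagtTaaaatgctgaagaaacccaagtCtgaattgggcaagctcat

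Such copies were not rare. Of the 82 members, 73 have at least 1 gene elsewhere that shares 20% or more of their 31-base words, 493 genes in all, of which 477 are annotated as processed pseudogenes. Together they held 6.67% of the counts of members and similar genes. For most members the share was small, with a median of 0.659%, but for 15 members it exceeded 10%. Over the counts of all 12 libraries, in which the deeper Hand2 series weighs more, these were Rpl26 (60.3%), Rpl29 (55.6%), Rps18 (46.4%), Rpl34 (38.4%), Rpl30 (32.4%), Rpl21 (29.4%), Rps2 (28.8%), Rpl35a (21.5%), Rpl3 (21%), Rpl5 (20.4%), Rpl35 (17.8%), Rps3a1 (17.5%), Rps7 (17.4%), Rpl41 (11%) and Rpsa (10.7%). The share differed between the series for some of them: Rps3a1 had 0.484% of its counts on copies in the Tbx3 libraries and 24.5% in those of Hand2, Rpl26 35.3% and 70.8%, Rpl35a 11.9% and 25.2%, and Rps7 28.1% and 12.8%. Within the Tbx3 series 14 members exceeded 10%, the 15 without Rps3a1, and within the Hand2 series the same 15 did. RSEM, which the submitters' processing notes name, shares a read that fits several transcripts among them by estimated abundance, so the split between these 15 members and their copies is uncertain.

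Fold changes were more spread where that share was larger. The share and the fold changes were taken from the same counts, so this relation is a description and not a test. Over the 15 members the SD of the log2 fold change was 0.49 in the Tbx3 comparison and 0.48 in the Hand2 comparison, and with copies added it was 0.051 and 0.062. Over the 64 tested members with at most 10% on copies it was 0.049 and 0.052 for the members alone. With the share taken within the Tbx3 series, the SD in that comparison was 0.51 over the 14 members and 0.048 over the other 65. In the Tbx3 comparison with copies added, 0 of 79 members passed the edgeR test, with 0 at an unadjusted p under 0.05 (14.3% of all genes), and the fold changes ran from -0.13 (Rpl29) to 0.15 (Rpl22l1). The same held between single libraries without regard to genotype: the ratio of the highest to the lowest of 6 libraries had a median of 1.39 (Tbx3 series) and 1.42 (Hand2 series) over the 15, and of 1.15 and 1.11 with copies added. It reached 3.43 for Rps2 in the Tbx3 series and 5.01 for Rpl29 in the Hand2 series. Over the other 64 the median ratios were 1.15 and 1.11. Among copies of the 15 members that reached 20 CPM in a library of the series, 8 of 23 in the Tbx3 series and 13 of 24 in the Hand2 series had another library below 5% of their highest value. Copies of the other members and other genes were not counted here. Each copy entered by its highest library, and no share over all genes stands beside these counts, so they only describe these copies. Some copies have identical values in every library, and over distinct sets of values the counts were 4 of 17 and 8 of 18.

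**Figure D3:**
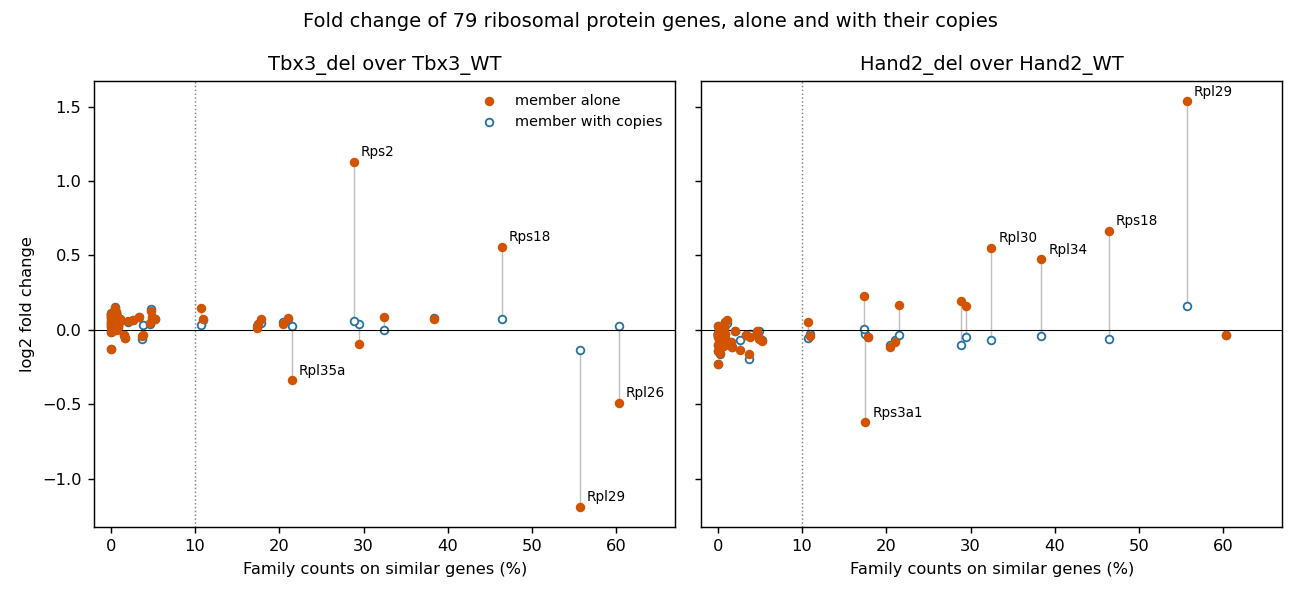
Log2 fold change of each of 79 members (vertical axis) against the percentage of its family's counts that lie on similar genes (horizontal axis), for the member alone (filled) and with its copies (open), joined by a grey line. The dotted line marks 10%, and right of it the filled points spread out, up to 1.13 for Rps2 and 1.54 for Rpl29, while the open points stay between -0.13 and 0.16.

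Rps2, a 40S protein at the entry of the mRNA channel, had the highest fold change of the Tbx3 comparison. It had 2669, 2740.2 and 2001 CPM in the libraries labelled Tbx3_del, against 1729, 859 and 799 CPM in Tbx3_WT. The groups did not overlap, but the spread within Tbx3_WT exceeded 2-fold, and the difference did not pass the test (log2 fold change 1.13, 95% interval 0.47 to 1.79, adjusted p = 0.134). Its copy Rps2-ps13, on the X chromosome, had 4.48, 1.64 and 1019 CPM in the libraries labelled Tbx3_del, against 1017, 1913 and 1968 CPM in Tbx3_WT. The copy was near 0 in 2 libraries labelled Tbx3_del and highest in the 2 Tbx3_WT libraries in which Rps2 was lowest. Rps2 with its copies had 2849, 3119 and 3173 CPM in the libraries labelled Tbx3_del, against 2937, 2936 and 2894 CPM in Tbx3_WT (log2 fold change 0.061, 95% interval -0.056 to 0.18, adjusted p = 0.638), so that all 6 libraries lay close together. In the Hand2 series the copy had 3.60, 3.47 and 0.709 CPM in Hand2_del, against 2.03, 913 and 933 CPM in Hand2_WT, and the fall passed the test (-7.90, adjusted p = 0.0489), although Hand2_WT replicate 1 was as low as Hand2_del. Rps2 itself had 2193, 2393 and 1665 CPM in Hand2_del, against 2424, 1534 and 1518 CPM in Hand2_WT (log2 fold change 0.19, 95% interval -0.30 to 0.68, adjusted p = 0.559).

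Rpl29 is a 60S protein whose absence in mice slows growth, and its values were scattered in both series. In the Tbx3 series it had 131, 139.6 and 123 CPM in the libraries labelled Tbx3_del, against 385, 378 and 136 CPM in Tbx3_WT (log2 fold change -1.19, 95% interval -1.98 to -0.40, adjusted p = 0.174). In the Hand2 series it had 571, 349 and 114 CPM in Hand2_del, against 117, 116 and 123 CPM in Hand2_WT (log2 fold change 1.54, 95% interval 0.37 to 2.70, adjusted p = 0.0852). Hand2_del replicate 3 lay with Hand2_WT, and replicate 1 far above it. The copy Gm13841 had 0.255, 82.4 and 169 CPM in Hand2_del, against 173, 168 and 168 CPM in Hand2_WT, near 0 in the library where Rpl29 was highest. With copies the 6 libraries were 576, 517 and 455 CPM in Hand2_del, against 466, 454 and 462 CPM in Hand2_WT, and the log2 fold change was 0.16. In the Tbx3 series the sum was 477, 522 and 489.8 CPM in the libraries labelled Tbx3_del, against 578, 566 and 489 CPM in Tbx3_WT, with a log2 fold change of -0.13.

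**Figure D4:**
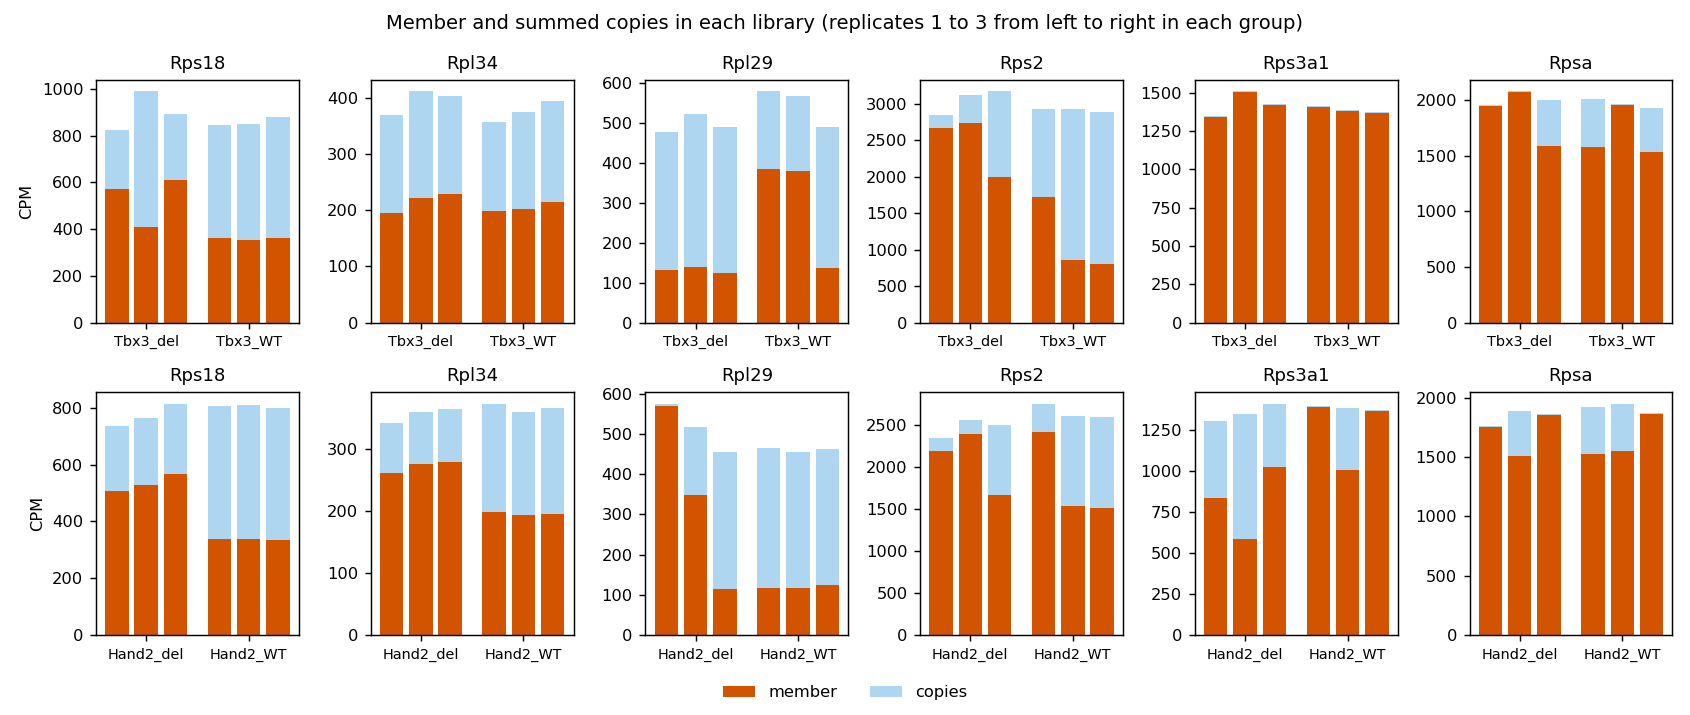
CPM of 6 members (orange) and of their summed copies (light blue, stacked) in each library, replicates 1 to 3 from left to right, deficient libraries left of wild type; upper row Tbx3 series, lower row Hand2 series. The orange part changes from library to library while the total is steadier, and in the Hand2 series Rps18 and Rpl34 show it separating the groups.

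Rps3a1, a 40S protein, had the lowest fold change of the Hand2 comparison. It had 835, 584 and 1021 CPM in Hand2_del, against 1386, 1003 and 1363 CPM in Hand2_WT (log2 fold change -0.62, 95% interval -1.12 to -0.12, adjusted p = 0.0959). The groups overlapped at Hand2_del replicate 3 and Hand2_WT replicate 2. Its copy Rps3a2 had 283, 389.7 and 181 CPM in Hand2_del, against 2.98, 177 and 4.58 CPM in Hand2_WT, low in the libraries in which Rps3a1 was highest. The sum of Rps3a1 and its copies was 1305, 1343 and 1409 CPM in Hand2_del, against 1393, 1380.0 and 1371 CPM in Hand2_WT, a log2 fold change of -0.031. Rpl30, a 60S protein, had 255, 276 and 395 CPM in Hand2_del, against 209, 204 and 219 CPM in Hand2_WT (log2 fold change 0.55, 95% interval 0.19 to 0.92, adjusted p = 0.0627), and no value of the groups overlapped. Rpl30-ps9 had 92.9, 109 and 4.19 CPM in Hand2_del, against 186, 179 and 192 CPM in Hand2_WT, and the log2 fold change of Rpl30 with its copies was -0.066. Rps7, a 40S protein, had 672, 798 and 816 CPM in Hand2_del, against 582, 678 and 688 CPM in Hand2_WT (log2 fold change 0.23, 95% interval 0.010 to 0.45, adjusted p = 0.141). Its copy Gm6472 had 128, 5.70 and 5.17 CPM in Hand2_del, against 223, 127 and 122 CPM in Hand2_WT, and the sum had a log2 fold change of 0.0035.

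In the Tbx3 series, Rps18 had 570.4, 409 and 609 CPM in the libraries labelled Tbx3_del, against 361, 355 and 362 CPM in Tbx3_WT (log2 fold change 0.56, 95% interval 0.25 to 0.86, adjusted p = 0.115), without overlap between the groups. Gm10260 had 169, 385 and 188 CPM in the libraries labelled Tbx3_del, against 322, 332 and 344 CPM in Tbx3_WT, and the library labelled Tbx3_del in which it was highest was the one in which Rps18 was lowest. Rps18 with its copies had a log2 fold change of 0.071. Rpl26, which binds the p53 mRNA in human cells, had 164, 383 and 358 CPM in the libraries labelled Tbx3_del, against 345, 557 and 371 CPM in Tbx3_WT (log2 fold change -0.49, 95% interval -1.22 to 0.23, adjusted p = 0.53), and its copy Gm15772 had 383, 214 and 196 CPM in the libraries labelled Tbx3_del, against 192, 1.08 and 199.7 CPM in Tbx3_WT. Gm15772 was near 0 in Tbx3_WT replicate 2, where Rpl26 was highest, and with copies the log2 fold change of Rpl26 was 0.028. Rpl35a, a 60S protein, had 349.8, 271 and 249 CPM in the libraries labelled Tbx3_del, against 339, 366 and 393 CPM in Tbx3_WT (log2 fold change -0.34, 95% interval -0.62 to -0.053, adjusted p = 0.268), and 0.026 with copies. Rpl21 (log2 fold change -0.093, 95% interval -0.36 to 0.18, adjusted p = 0.77) and Rpsa, the laminin receptor protein of the 40S subunit (log2 fold change 0.14, 95% interval -0.14 to 0.42, adjusted p = 0.641), were at 0.037 and 0.033 with copies. None of these passed the test.

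Some members at the ends of the range had few counts on copies. Rps27l, a paralogue of Rps27 and a known p53 target, had 84.5, 98 and 94.3 CPM in Hand2_del, against 107, 104 and 113 CPM in Hand2_WT (log2 fold change -0.23, 95% interval -0.37 to -0.086, adjusted p = 0.0555). All Hand2_del values lay below all Hand2_WT values, and the difference fell just short of the threshold, whereas DESeq2 and the fit of all 12 libraries called it. Rps27l has 0 similar genes, so its own counts were the same in the fit with copies added to other members (adjusted p = 0.0508, edgeR). In the Tbx3 series Rps27l had 101, 113 and 108 CPM in the libraries labelled Tbx3_del, against 106, 109.6 and 109.8 CPM in Tbx3_WT (log2 fold change -0.014, 95% interval -0.14 to 0.11, adjusted p = 0.932). Rplp1 had 995, 992 and 943 CPM in Hand2_del, against 1151, 1064 and 1057 CPM in Hand2_WT (log2 fold change -0.16, 95% interval -0.27 to -0.048, adjusted p = 0.0726), again without overlap. Its stalk partner Rplp2 had 533, 538 and 545 CPM in Hand2_del, against 559.8, 557 and 542 CPM in Hand2_WT (log2 fold change -0.038, 95% interval -0.12 to 0.048, adjusted p = 0.503). In the Tbx3 series the log2 fold changes were 0.020 for Rplp1 and 0.088 for Rplp2 (adjusted p = 0.941 and 0.543). Rpl7l1 had 193, 220.2 and 214 CPM in Hand2_del, against 244, 219 and 239 CPM in Hand2_WT (log2 fold change -0.16, 95% interval -0.32 to -0.0038, adjusted p = 0.147), with Hand2_del replicate 2 above Hand2_WT replicate 2.

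Rps27a, made as a fusion with ubiquitin, had 571, 620.0 and 628 CPM in Hand2_del, against 644, 636 and 624 CPM in Hand2_WT (log2 fold change -0.065, 95% interval -0.18 to 0.047, adjusted p = 0.375), and a log2 fold change of 0.021 in the Tbx3 comparison (adjusted p = 0.89). Rpl38 had 208, 239 and 229 CPM in the libraries labelled Tbx3_del, against 192, 214 and 215 CPM in Tbx3_WT (log2 fold change 0.12, 95% interval -0.039 to 0.29, adjusted p = 0.481), and 181, 186 and 202 CPM in Hand2_del, against 197, 198 and 192 CPM in Hand2_WT (log2 fold change -0.043, 95% interval -0.16 to 0.077, adjusted p = 0.587). In both series its groups overlapped. Rpl22l1, a paralogue that can stand in for Rpl22 in the mouse, had 140.5, 158 and 169.5 CPM in the libraries labelled Tbx3_del, against 141, 151 and 131 CPM in Tbx3_WT (log2 fold change 0.15, 95% interval -0.041 to 0.34, adjusted p = 0.471). In Hand2_del it was at -0.072 on the log2 scale (adjusted p = 0.204). Rps24, a 40S protein mutated in some patients with Diamond-Blackfan anaemia, had 485, 534 and 656 CPM in Hand2_del, against 657, 549 and 639 CPM in Hand2_WT (log2 fold change -0.14, 95% interval -0.42 to 0.14, adjusted p = 0.452), with overlap.

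Rpl10l, which replaces Rpl10 in the male germ line, had 0 expected counts in all 12 libraries, where a count of 0 allows up to 3 counts per library by counting error alone. Rpl39l, also of the male germ line, had 14 counts over the 12 libraries together, and Rpl3l, the striated muscle paralogue of Rpl3, had 11. The nearest member to the Tbx3 locus on chromosome 5 was Rpl6, at 1.52 Mb, with 1203, 1312 and 1269 CPM in the libraries labelled Tbx3_del, against 1232, 1232 and 1236 CPM in Tbx3_WT (log2 fold change 0.032, 95% interval -0.073 to 0.14, adjusted p = 0.792).

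The effects of the genotypes were compared in 1 fit of all 12 libraries, as the Hand2 effect minus the Tbx3 effect. Of the members 1 passed the test, Rpl34, set against 292 of 17360 genes, or 1.68%. Its log2 fold change was 0.47 in Hand2_del and 0.072 in libraries labelled Tbx3_del, a difference of 0.40 (SE 0.0838, 95% interval 0.22 to 0.59, adjusted p = 0.0388, edgeR). The call was lost without any 1 of the 6 wild-type libraries, without Hand2_del replicate 2 or 3 and without the library labelled Tbx3_del replicate 2 (differences of 0.37 to 0.42, adjusted p up to 0.0916). With copies added the difference was -0.12 (adjusted p = 0.428). In the Tbx3 series Rpl34 had 195, 221 and 229 CPM in the libraries labelled Tbx3_del, against 198, 202 and 214 CPM in Tbx3_WT, and Rpl34-ps1 had 174, 189 and 172 CPM in the libraries labelled Tbx3_del, against 157, 171 and 178 CPM in Tbx3_WT, so that the libraries of that series lay together on both genes. The largest difference was that of Rpl29, 2.73 (adjusted p = 0.0736), which DESeq2, the fit with no filter and the fit without Hand2_del replicate 3 called, and with copies it was 0.30 (adjusted p = 0.23). For Rps3a1 it was -0.66 (adjusted p = 0.196).

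Other genes of ribosome supply were taken from lists of factors that assemble the subunits, transcribe ribosomal RNA or share the TOP tract. In libraries labelled Tbx3_del, 1 of 30 assembly factors of the 60S subunit fell, where 0.284% of all genes did. It was Rrs1, needed for 5S particle entry in yeast (105 ± 5.11 CPM in the libraries labelled Tbx3_del and 151 ± 18.6 CPM in Tbx3_WT, SD, n = 3 each; log2 fold change -0.53, adjusted p = 0.0462). None of 29 assembly factors of the 40S subunit, 21 genes of ribosomal RNA transcription and the nucleolus, 21 TOP partners, 21 regulators of ribosomal protein synthesis or 13 genes of nucleolar stress and the p53 response passed the edgeR test. At an unadjusted p under 0.05 these 5 lists held 2, 1, 2, 2 and 2 genes (14.3% of all genes), and DESeq2 called 0, 0, 2, 1 and 1 (3.43% of all genes). The medians of these 6 lists ran from -0.035 to 0.050, against -0.003 for all genes.

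In Hand2_del, 6 of 30 assembly factors of the 60S subunit fell and none rose, with a list median of -0.23. Of all genes tested, 1018 of 17489, or 5.82%, fell, and the median was 0.013. The smallest adjusted p belonged to Nip7, which is needed for 60S maturation in yeast (65.7 ± 2.85 CPM in Hand2_del and 80.4 ± 5.76 CPM in Hand2_WT; log2 fold change -0.29, adjusted p = 0.0326), Sbds, which helps to release eIF6 from the new subunit (32.7 ± 0.980 CPM in Hand2_del and 40.4 ± 3.14 CPM in Hand2_WT; log2 fold change -0.30, adjusted p = 0.036), Bop1 (log2 fold change -0.31, adjusted p = 0.0415) and Gnl3, or nucleostemin (105 ± 9.30 CPM in Hand2_del and 140.3 ± 16.1 CPM in Hand2_WT; log2 fold change -0.42, adjusted p = 0.0421). Of 29 assembly factors of the 40S subunit 6 fell as well (list median -0.22), led by Noc4l (log2 fold change -0.22, adjusted p = 0.0347), Utp15 (log2 fold change -0.23, adjusted p = 0.0432), Emg1, a methyltransferase of the 18S rRNA (log2 fold change -0.21, adjusted p = 0.0449), and Rrp12 (58.9 ± 0.761 CPM in Hand2_del and 73.7 ± 8.41 CPM in Hand2_WT; log2 fold change -0.33, adjusted p = 0.0453). Of 21 genes of ribosomal RNA transcription and the nucleolus 5 fell (list median -0.25). They included Rrn3, which brings RNA polymerase I to its promoter (104 ± 2.57 CPM in Hand2_del and 125 ± 7.28 CPM in Hand2_WT; log2 fold change -0.27, adjusted p = 0.0259), Ubtf, which holds ribosomal DNA open (269 ± 6.47 CPM in Hand2_del and 320.1 ± 17.2 CPM in Hand2_WT; log2 fold change -0.25, adjusted p = 0.033), Gar1 (log2 fold change -0.26, adjusted p = 0.0454) and the abundant nucleolar chaperone Npm1 (2153 ± 167 CPM in Hand2_del and 2699 ± 235 CPM in Hand2_WT; log2 fold change -0.33, adjusted p = 0.0464).

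These calls lay near the threshold. Counted in either direction, DESeq2 called 24, 22 and 14 genes of the 3 lists, and 22.8% of all genes. The edgeR counts for the 3 lists (6, 6 and 5) were 18, 19 and 13 without Hand2_WT replicate 2. Without Hand2_WT replicate 1 or 3, without Hand2_del replicate 1 or 3, with embryo sex as a covariate, or with library totals in place of TMM factors, they were 0 in all 3, and 2, 2 and 1 without Hand2_del replicate 2. At an unadjusted p under 0.05 lay 24 of 30, 23 of 29 and 15 of 21, set against 32.4% of all genes.

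Of all 17489 genes tested in the Hand2 comparison, 818 rose and 1018 fell. Among 21 TOP partners, translation factors whose mRNAs share the tract with the members, 1 rose in Hand2_del and none fell. It was Eef1g, a subunit of elongation factor 1 (1235 ± 15.4 CPM in Hand2_del and 1064 ± 58.8 CPM in Hand2_WT; log2 fold change 0.21, adjusted p = 0.0387), and the list median was -0.017, against -0.041 for the members. Of 21 regulators of ribosomal protein synthesis 2 fell: Larp4, a binder of poly(A) tails (107 ± 7.34 CPM in Hand2_del and 144 ± 9.25 CPM in Hand2_WT; log2 fold change -0.44, adjusted p = 0.0167), and the transcription factor Yy1 (190.4 ± 2.07 CPM in Hand2_del and 220.4 ± 6.75 CPM in Hand2_WT; log2 fold change -0.21, adjusted p = 0.0282), with a list median of -0.094. Of 13 genes of nucleolar stress and the p53 response 1 rose, Trp53inp1 (33.1 ± 2.91 CPM in Hand2_del and 21.3 ± 4.82 CPM in Hand2_WT; log2 fold change 0.64, adjusted p = 0.0474), and 1 fell, Bax, which opens the outer mitochondrial membrane in apoptosis (84.6 ± 1.70 CPM in Hand2_del and 93.2 ± 2.62 CPM in Hand2_WT; log2 fold change -0.14, adjusted p = 0.0465), with a list median of -0.072. For these 3 lists (21, 21 and 13 genes) DESeq2 called 6, 9 and 5 genes, set against 22.8% of all genes. At an unadjusted p under 0.05 lay 8, 12 and 8, set against 32.4% of all genes. The 78 proteins of the mitochondrial ribosome, a list added after the data were seen, had 0 calls by edgeR in libraries labelled Tbx3_del, with 3 at an unadjusted p under 0.05, 0 by DESeq2 and a median of 0.013. In Hand2_del 8 of 78 fell and none rose, where 5.82% of all genes fell, with a median of -0.096. DESeq2 called 16 of the 78 and 30 lay at an unadjusted p under 0.05, set against 22.8% and 32.4% of all genes. Those called by edgeR included Mrps11 (log2 fold change -0.35, adjusted p = 0.0144), Mrpl17 (log2 fold change -0.24, adjusted p = 0.0163), Mrpl9 (log2 fold change -0.25, adjusted p = 0.0186) and Mrpl54 (log2 fold change -0.23, adjusted p = 0.0296). Macrophage, body wall and somite markers were higher in Hand2_del over the same libraries (summed levels of 9.57 to 16.7 CPM in Hand2_del, against 4.62 to 7.60 CPM in Hand2_WT; 428 to 489.8 CPM in Hand2_del, against 306 to 346 CPM in Hand2_WT; and 184 to 206 CPM in Hand2_del, against 135 to 167 CPM in Hand2_WT). Endothelial, neural crest and neuron, and hindlimb markers were higher too (292 to 319.9 CPM in Hand2_del, against 273 to 279.5 CPM in Hand2_WT; 114 to 128 CPM in Hand2_del, against 97.6 to 109 CPM in Hand2_WT; and 13.9 to 15.1 CPM in Hand2_del, against 8.59 to 8.94 CPM in Hand2_WT). Of these, 6 of 7 endothelial, 7 of 8 tested neural crest and neuron and 4 of 5 hindlimb markers had a positive log2 fold change. The lowest hindlimb value was -0.83. Epithelial markers were lower in sum (275 to 292 CPM in Hand2_del, against 302 to 333 CPM in Hand2_WT), and red cell markers overlapped between the groups. Of the 9 epithelial markers 1 was called lower and 2 were positive. Their median was -0.053 and their lowest value -0.75, so their sum does not stand for the list as a whole. The part of these cells in the calls was not tested.

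**Figure D5:**
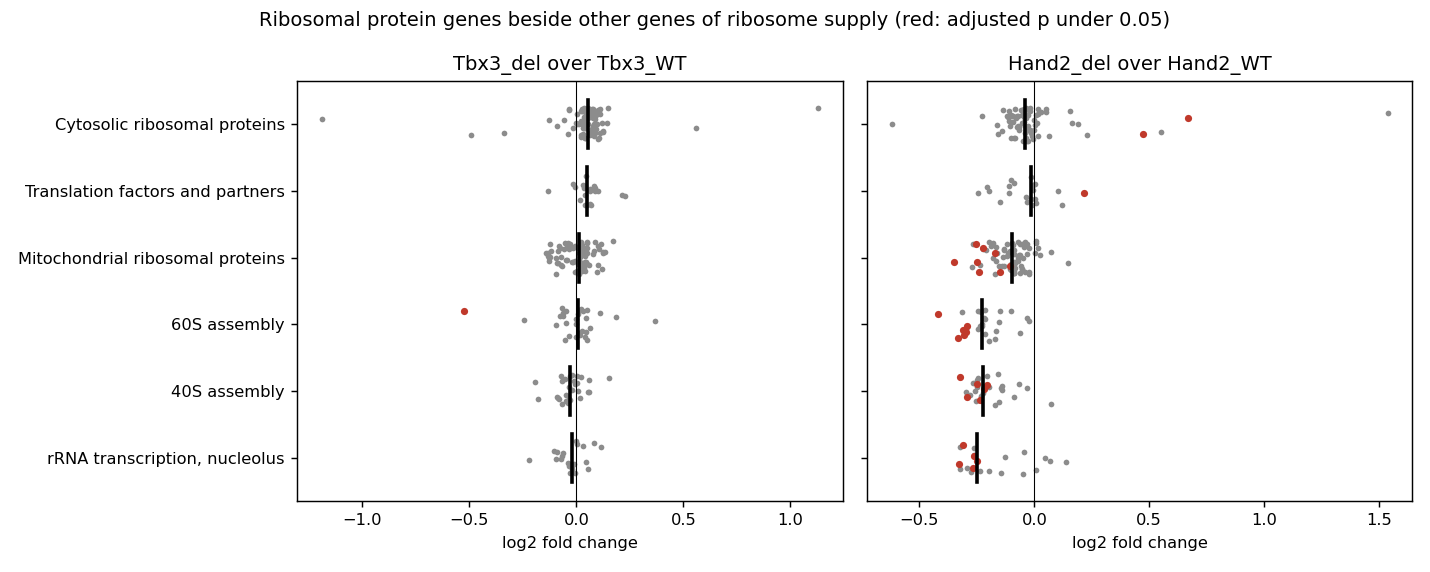
Log2 fold changes of the tested genes of 6 lists, deficient over wild type, with 1 point per gene (red where the adjusted p was under 0.05) and a bar at each list's median. In Hand2_del the assembly and nucleolar lists have medians between -0.22 and -0.25, and the cytosolic ribosomal proteins one of -0.041.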

How the data were processed

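Gene expression was measured by RNA-seq (85-base single-end reads, SMARTer libraries) in 12 libraries, each from 1 pair of forelimb buds, in 4 groups of 3. The authors deposited expected counts per gene, 1 table per library. The submitters' processing notes name FastQC 0.11.4, STAR 2.5.2, RSEM 1.3.0 and the mm10 build. Whether counting used strand is not given in the sources used here, and antisense overlap could not be separated.

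Expected counts were rounded to whole numbers. IDs were matched to GENCODE M21 symbols (53360 of 53465). Each comparison was fitted with edgeR 4.0.16 (quasi-likelihood F test, TMM factors, filterByExpr with a minimum count of 10 and total of 15, prior count 0.125) in R 4.3.3. P-values were adjusted over all genes tested (Benjamini-Hochberg, threshold 0.05), and the difference of effects was fitted over all 12 libraries. CPM are counts per 1000000 scaled by TMM. A standard error is the log2 fold change divided by the root of F, and intervals are at 95%. Similar genes are those sharing 20% or more of a member's 31-base words. In the fit with copies added, their counts were summed with the member's and the fit was repeated. Alternatives used DESeq2 1.42.0, limma 3.58.1, other scalings and filters, embryo sex, the replicate number as a block and each library left out. The fit was tested on simulated data. Tables were made with Python 3.11.15, pandas 2.3.3, numpy 2.4.6 and scipy 1.17.1 and drawn with matplotlib 3.10.9.

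The members and gene lists were chosen with earlier results of these data known. Named members are those called in a comparison, the 5 highest and 5 lowest fold changes of each, the 5 highest and 5 lowest levels per length, paralogues, stalk and ubiquitin-fusion proteins, and those whose call differs with copies added. From other lists up to 4 called genes with the smallest adjusted p are named. Rpl6 and the source genes of copies are named beside this rule, and some members that it covers are not reported here.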

Additional observations from a re-analysis of the deposited data

Results flagged for a closer look

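Rpl34 was the member for which edgeR's test of the difference between the effects passed the threshold, in series that also differ in stage, depth and breeding. Its log2 fold change in Hand2_del exceeded that in libraries labelled Tbx3_del by 0.40 (SE 0.0838, 95% interval 0.22 to 0.59, adjusted p = 0.0388, edgeR over 12 libraries). It was higher than every Hand2_WT library in 3 of 3 Hand2_del libraries. The difference was called in 11 of 22 alternatives without copies added, with adjusted p up to 0.10. With its copies added it was -0.12 (adjusted p = 0.428). Rpl29 was called for the difference by DESeq2, with no filter and without Hand2_del replicate 3.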

How the results depend on the processing

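For the Hand2 series, the calls of Rps18 and Rpl34 held in 17 of 17 alternatives that did not add copies (log2 fold change 0.62 to 0.70 and 0.45 to 0.51, adjusted p up to 0.0208 and 0.0379). Adding copies gave 0 member calls. DESeq2 called 10 (4 higher, 6 lower), the fit of all 12 libraries 4, and leaving out 1 library 2 to 3. In the Tbx3 comparison the count of 0 became 2 with DESeq2, 1 (Rps18) with all 12 libraries in the fit and 3 (Rps2, Rps18 and Rpl29) with no filter. It was 0 to 1 with 1 library left out: Rps2 without Tbx3_WT replicate 1, Rpl29 without Tbx3_WT replicate 3, Rpl35a without Tbx3_del replicate 1 and Rps18 without Tbx3_del replicate 2. The counts of 0 and 2 held under DESeq2 size factors, library totals, TMM without the members, the top gene left out and limma-voom. Called for the difference of effects were 2 members with DESeq2, 2 with no filter, 0 with copies added, 0 with embryo sex as a covariate and 0 to 2 with 1 library left out. The replicate numbers do not pair the samples (correlations of same-numbered deviations -0.13 to 0.073). With the number as a replicate block 0 members were called in the Tbx3 comparison, 2 in the Hand2 comparison and 0 for the difference. The members' median stayed at 0.015 to 0.10 (Tbx3, 17 alternatives) and -0.063 to -0.0060 (Hand2, 18 alternatives). For named members 691 of 757 alternatives left sign and call as they were, 33 turned the sign, 22 gave a call and 11 lost one. Of the 33, those with copies added were Rpl21 0.037, Rpl26 0.028, Rpl30 -0.0028 and Rpl35a 0.026 (Tbx3); Rpl21 -0.052, Rpl30 -0.066, Rpl34 -0.044, Rpl35a -0.035, Rps18 -0.062, Rps2 -0.10 and Rpsa -0.058 (Hand2); and Rpl34 -0.12 and Rps18 -0.13 (difference). With embryo sex they were Rps24 -0.26, Rps27a -0.010 and Rpsa -0.093 (Tbx3) and Rpsa -0.036 (Hand2). With 1 library left out the value crossed 0 for Rpl21 -0.16 to 0.062, Rpl30 -0.093 to 0.22, Rpl7l1 -0.070 to 0.0069, Rplp1 -0.071 to 0.10, Rps24 -0.13 to 0.14, Rps27a -0.020 to 0.048, Rps27l -0.051 to 0.030, Rps3a1 -0.0034 to 0.079 and Rps7 -0.028 to 0.058 (Tbx3), Rpl35a -0.063 to 0.29 and Rpsa -0.013 to 0.15 (Hand2) and Rps18 -0.047 to 0.22 (difference). Of the 33, 30 started from and gave values without a call. The other 3 are the called values of Rps18 and Rpl34 (Hand2) and of Rpl34 (difference) with copies added. Beyond the added copies the cause was not tested. Reads shared with copies limit the 15 members named above, and 3 libraries a group limit the size of effect that can pass the test.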
